A study of Homo sapiens with 24 samples.

Results

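The transcripts of 10 JmjC histone demethylases were followed in RCC4+VHL cells exposed to hypoxia and to a ligand of the aryl hydrocarbon receptor (AHR). The members were taken by symbol from the count tables: KDM3A and KDM3B, KDM4A, KDM4B and KDM4C, KDM5A, KDM5B and KDM5C, and KDM6A and KDM6B. They are 10 of the 23106 gene symbols in the tables. All 10 passed the filter on low counts, which kept 11735 genes. RCC4+VHL is a single renal carcinoma line that lacked functional VHL, the protein that directs hypoxia-inducible factor (HIF) to degradation in oxygen, until VHL was put back. PolyA RNA was sequenced from 24 libraries in 4 groups of 6. Cells in normoxia + DMSO were kept at 21% O2 with 0.1% DMSO vehicle, and cells in normoxia + ITE at 21% O2 with 100 nM ITE, an agonist of AHR. Cells in hypoxia + DMSO and hypoxia + ITE received the same treatments at 0.5% O2. Both exposures lasted 6 h in every case. The comparisons address which demethylases were raised in hypoxia and whether ITE altered that response.

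JmjC histone demethylases are dioxygenases that remove methyl groups from lysines of histone tails, using molecular oxygen, iron and 2-oxoglutarate. The KDM3 enzymes act mainly on H3K9 methylation, the KDM4 enzymes on H3K9 and H3K36, the KDM5 enzymes on H3K4 and the KDM6 enzymes on H3K27. Several of their genes are known as HIF targets, so that the enzyme is made in larger amounts when its substrate oxygen is scarce.

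The libraries held between 770094 and 93851342 counts, with a median of 7981992.5. A count of 3 therefore stood for 0.0294 to 4.12 CPM, the counts scaled to the size of the library. The methods of the study describe the replicates as independent, and the labels only number them. NDRG1, a HIF target, was at 27.8 to 44.1 CPM in normoxia + DMSO and 31.7 to 41.1 in normoxia + ITE, against 237 to 376 in hypoxia + DMSO and 206 to 335 in hypoxia + ITE. CYP1B1, an AHR target, was at 49.1 to 70.6 CPM in normoxia + DMSO and 31.4 to 70.4 in hypoxia + DMSO, against 242 to 391 in normoxia + ITE and 106 to 306 in hypoxia + ITE. Both genes separated their groups as labelled. Of 6 renal epithelial markers all were detected in each of the 24 libraries, PAX8 at 168 to 348 CPM, whereas the leukocyte gene PTPRC and the endothelial gene PECAM1 were at 0 in 23 libraries each. The hepatocyte gene ALB was at 0 in 22 libraries and the muscle gene DES in 16, with highest values of 0.201 and 9.29 CPM.

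Some libraries stood apart from their group. In 5 of them the median absolute deviation of all tested genes from the group mean was at least 0.29 on the log2 scale, whereas it was at most 0.221 in the others. All 5 were hypoxia libraries: hypoxia + DMSO replicates 1 and 2 and hypoxia + ITE replicates 1, 3 and 6. Hypoxia + DMSO replicate 2 was also the shallowest library of the series, with 770094 counts, and hypoxia + ITE replicate 1 held 1357702. Hypoxia results of KDM3A, KDM4B and KDM4C and of the paralogue ratios that passed are therefore also given without these 5 libraries. This alternative was chosen after the data had been seen. No other member was called for hypoxia without these libraries.

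Per kilobase of exon, KDM3B and KDM4A were the most abundant of the 10 transcripts in normoxia + DMSO. Their levels were 17.8 ± 1.31 and 16.7 ± 2.16 CPM per kb (SD, n = 6 here and for every mean below) and their ranges overlapped. KDM3A followed at 7.14 ± 0.952, with no overlap with either neighbour in the order. KDM4B at 5.36, KDM5B at 4.84, KDM5A at 4.81 and KDM6A at 4.15 CPM per kb overlapped each with the next. KDM4C stood apart from its neighbours at 2.51 ± 0.221 CPM per kb. The lowest pair was KDM5C and KDM6B, at 1.82 and 1.30 CPM per kb with overlapping ranges. In hypoxia + DMSO the order changed at its top: KDM3A, at 16.5 ± 4.47 CPM per kb, was level with KDM4A at 16.2 and KDM3B at 16.2, and all 3 ranges overlapped.

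KDM3A and KDM4B rose in hypoxia, with DMSO and with ITE, and the other 8 members did not pass the test in either comparison. That made 2 of 10 members called higher in each, where 1.16% of all tested genes were called higher with DMSO and 1.89% with ITE. No member was called lower, against 0.136% and 0.46% of all genes. The log2FC of all tested genes had a median of -0.003 with DMSO and 0.02 with ITE, and that of the 10 members 0.13 and -0.01. In bulk RNA fewer cells that express a gene and less RNA per cell cannot be told apart. The plot of CPM by library shows every value behind these counts, and the plot of log2FC shows the fitted changes with their intervals.

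**Figure D1:**
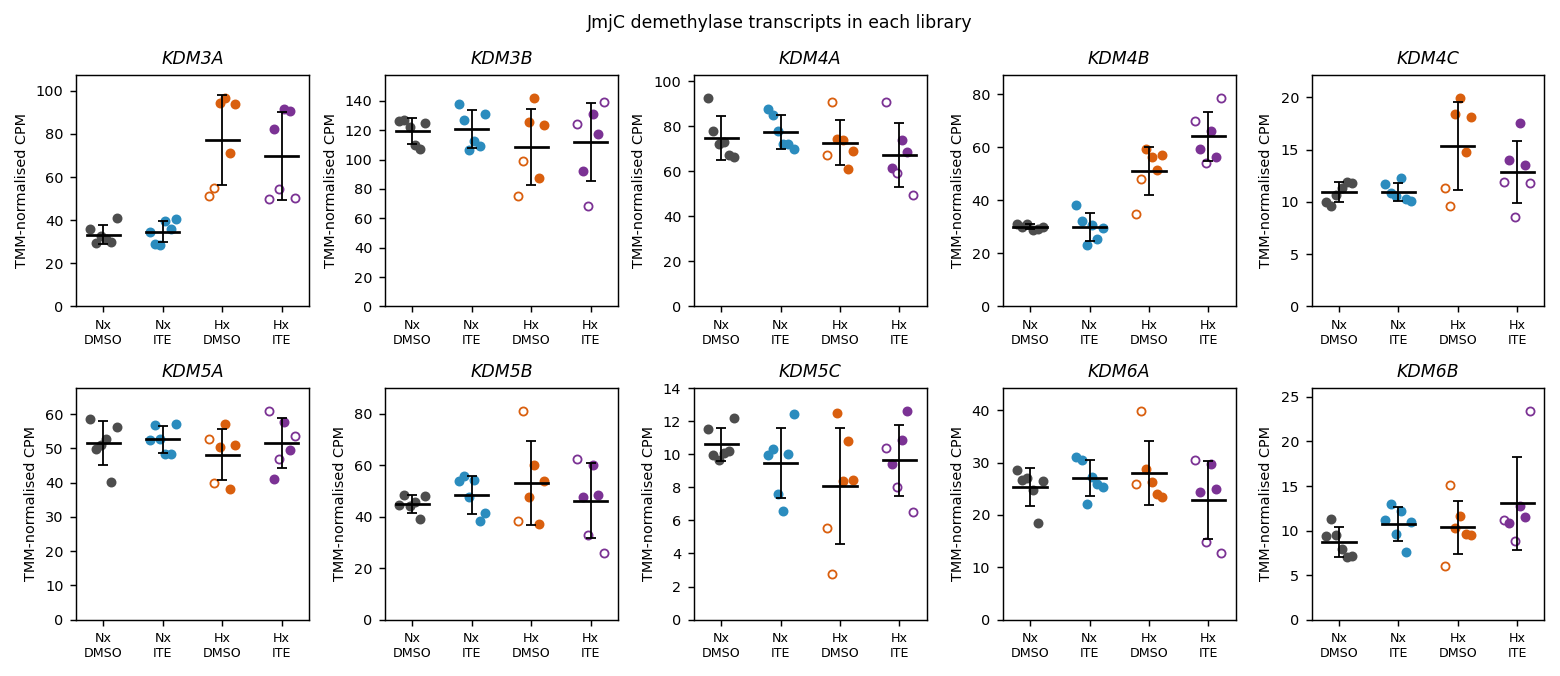
TMM-normalised CPM (linear axis from 0) of each of the 10 members in the 6 libraries of normoxia (Nx) and hypoxia (Hx) with DMSO or ITE. Bars are the group mean and SD, and open points are the 5 hypoxia libraries that stood apart. KDM3A lies at 28.6 to 41.1 CPM in normoxia and at 49.8 to 96.8 in hypoxia, and KDM4B in hypoxia + ITE lies above both normoxia groups, while KDM3B, KDM4A, KDM5A, KDM5B, KDM5C, KDM6A and KDM6B overlap between oxygen levels.

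**Figure D2:**
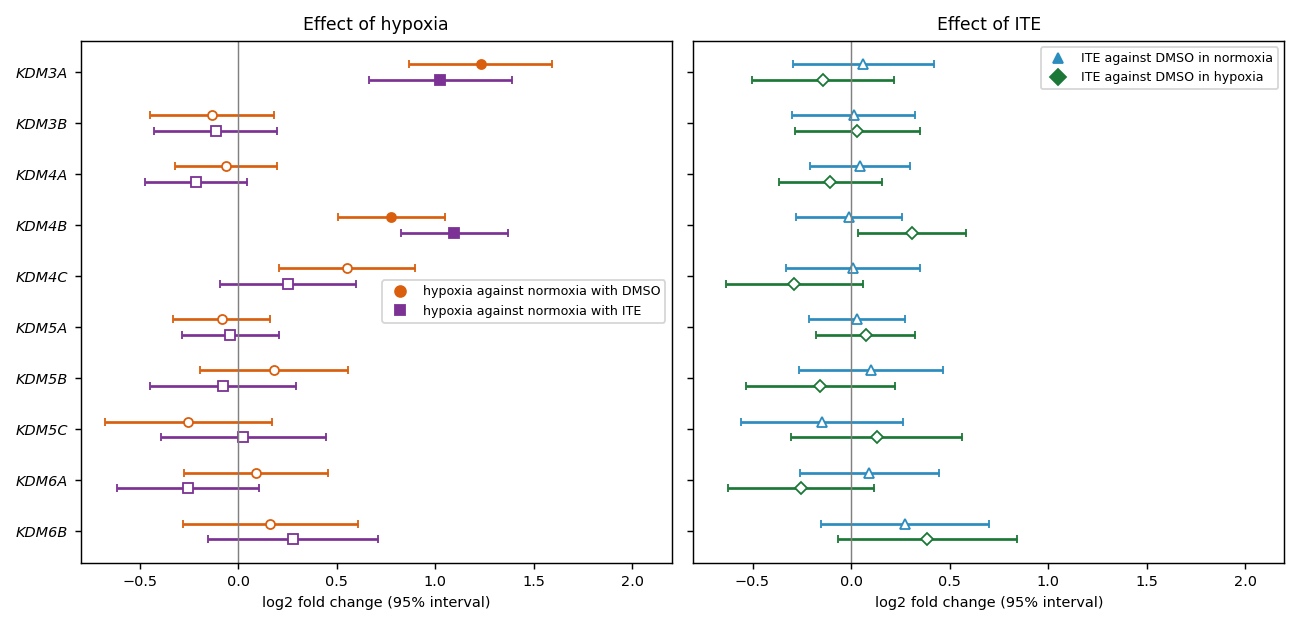
Fitted log2FC of each member with its 95% interval (edgeR), for hypoxia against normoxia on the left and for ITE against DMSO on the right. Filled symbols passed an adjusted p of 0.05, which holds for KDM3A and KDM4B on the left and for no member on the right.

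KDM3A and KDM3B act on mono- and dimethylated H3K9, and KDM3A is a textbook HIF target. KDM3A (GRCh37 chr2:86667770-86719839, plus strand) ran from 29.5 to 41.1 CPM with a median of 32.0 in normoxia + DMSO, and from 51.1 to 96.8 with a median of 82.5 in hypoxia + DMSO. With ITE it ran from 28.6 to 40.3, median 35.2, in normoxia and from 49.8 to 91.7, median 68.4, in hypoxia. Every hypoxia library was thus above every normoxia library. The log2FC was 1.23 with DMSO (SE 0.178, 95% interval 0.87 to 1.59, edgeR adjusted p = 4.4e-05) and 1.03 with ITE (SE 0.177, 0.66 to 1.39, edgeR adjusted p = 0.000594). It was higher in 6 of 6 pairs in both, where a pair is a hypoxia and a normoxia library matched by number only. KDM3B (chr5:137688374-137772717, plus strand), the other KDM3 member followed here, was at 107 to 127 CPM with a median of 124 in normoxia + DMSO. In hypoxia + DMSO it was at 75.1 to 142 with a median of 111. In the ITE groups it spanned 107 to 138 and 68.5 to 139. Its ranges overlapped throughout, with a log2FC of -0.13 (-0.45 to 0.18, edgeR adjusted p = 0.85) with DMSO and -0.11 (-0.43 to 0.20) with ITE.

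The KDM4 enzymes remove the trimethyl mark from H3K9 and H3K36. KDM4B (chr19:4969124-5153609, plus strand) varied little in normoxia + DMSO, where it was at 28.7 to 31.2 CPM with a median of 29.9, and was at 34.9 to 59.4 with a median of 53.8 in hypoxia + DMSO. With ITE it was at 23.3 to 38.2, median 30.1, in normoxia and 54.1 to 78.7, median 62.9, in hypoxia. Within each treatment no hypoxia library overlapped a normoxia library. The log2FC was 0.78 with DMSO (SE 0.133, 0.50 to 1.05, edgeR adjusted p = 0.000512) and 1.10 with ITE (SE 0.133, 0.82 to 1.37, edgeR adjusted p = 2.76e-06), higher in 6 of 6 pairs in both. KDM4A (chr1:44115820-44171189, plus strand), the most abundant of the KDM4 transcripts, was at 66.3 to 92.6 CPM in normoxia + DMSO and 61.0 to 90.7 in hypoxia + DMSO, with medians of 72.5 and 71.4. Its ranges overlapped, and the log2FC was -0.06 (-0.32 to 0.20, edgeR adjusted p = 0.926) with DMSO and -0.21 (-0.47 to 0.04) with ITE.

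KDM4C (chr9:6720863-7175648, plus strand) lay between these. In normoxia + DMSO it was at 9.60 to 11.9 CPM with a median of 11.0, and in hypoxia + DMSO at 9.62 to 20.0 with a median of 16.5. It was at 10.1 to 12.3, median 10.7, in normoxia + ITE and at 8.53 to 17.5, median 12.7, in hypoxia + ITE. The groups overlapped because the lowest hypoxia libraries were at the level of normoxia, with as few as 7 counts in hypoxia + DMSO replicate 2. With DMSO KDM4C was higher in hypoxia in 6 of 6 pairs, although the libraries numbered 2 were level, at 9.62 against 9.60 CPM. The log2FC of 0.55 with DMSO (SE 0.168, 0.21 to 0.90) had an unadjusted p of 0.00278 in edgeR, but did not pass over all genes (edgeR adjusted p = 0.14). With ITE it was 0.25 (-0.09 to 0.60, edgeR adjusted p = 0.403). Averaged over DMSO and ITE, KDM4C just passed, with a log2FC of 0.40 (0.16 to 0.65, edgeR adjusted p = 0.0451), and its call depended on the setting: it passed with DMSO alone under 5 of 13 alternatives, and failed in the average under 3 of 11. In that average 3 of 10 members were called higher, KDM3A at 1.13 (edgeR adjusted p = 2.31e-07) and KDM4B at 0.94 (edgeR adjusted p = 3.32e-08) with KDM4C, where 3.35% of all genes were called higher. None was called lower, against 1.66% of all genes.

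The KDM5 enzymes remove methyl groups from H3K4, a mark of active promoters, and none of the 3 passed the test. KDM5A (chr12:389223-498486, minus strand) was at 40.3 to 58.6 CPM in normoxia + DMSO and 38.2 to 57.3 in hypoxia + DMSO, a log2FC of -0.08 (edgeR adjusted p = 0.896). Exons of CCDC77, on the plus strand, overlap those of KDM5A, and the strand setting of the counting is not given in the sources used here. KDM5B (chr1:202693623-202777615, minus strand) was at 39.0 to 48.6 CPM in normoxia + DMSO and spread to 37.3 to 81.1 in hypoxia + DMSO, with a log2FC of 0.18 (edgeR adjusted p = 0.818) that was 0.07 without hypoxia + DMSO replicate 2. KDM5C (chrX:53205465-53254604, minus strand) was at 9.67 to 12.2 CPM in normoxia + DMSO and 2.75 to 12.5 in hypoxia + DMSO, where the lowest value was 2 counts. Its log2FC was -0.25 (-0.68 to 0.17, edgeR adjusted p = 0.763). With ITE the log2FC in hypoxia was -0.04 for KDM5A, -0.08 for KDM5B and 0.03 for KDM5C, the last 2 of which became 0.03 and 0.10 without hypoxia + ITE replicate 6.

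The KDM6 enzymes remove methyl groups from H3K27, the mark laid down by Polycomb complexes, and neither passed. KDM6A (chrX:44732434-44972024, plus strand) was at 18.4 to 28.5 CPM in normoxia + DMSO and 23.4 to 39.9 in hypoxia + DMSO, with a log2FC of 0.09 (-0.27 to 0.45, edgeR adjusted p = 0.923) that was 0.017 without hypoxia + DMSO replicate 2. In hypoxia + ITE it spanned 12.8 to 30.5 CPM against 22.0 to 31.2 in normoxia + ITE, a log2FC of -0.26 (-0.62 to 0.10) that was -0.15 without hypoxia + ITE replicate 6. KDM6B (chr17:7737535-7758114, plus strand), known as an inducible member of the family, was the least abundant per kilobase in normoxia. It was at 7.07 to 11.3 CPM in normoxia + DMSO and 6.00 to 15.1 in hypoxia + DMSO, a log2FC of 0.16 (-0.28 to 0.61, edgeR adjusted p = 0.876) that was 0.11 without hypoxia + DMSO replicate 2. With ITE its log2FC in hypoxia was 0.28 (-0.16 to 0.71), and 0.058 without hypoxia + ITE replicate 6. The intervals of the uncalled members reached 0.61 or less with DMSO except that of KDM4C, which reached 0.90. A rise as large as the fitted one of KDM3A lay outside them, whereas changes within the intervals were not resolved at this depth and spread.

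Promoter windows of KDM3A and KDM4B, which rose, are shown with those of KDM4C, which just passed in the average, and of KDM3B. KDM3B is a paralogue of KDM3A that did not pass. Each window runs from 250 bases before to 50 after a transcription start of RefSeq (GRCh38.p14), and 12 windows covered the 10 members. Capitals mark ACGTG and GCGTG, both forms of the core that HIF recognises, of which GCGTG is also the core of the AHR element. Both were searched on both strands. A palindromic CACGTG holds an ACGTG on each strand.
KDM3A, chr2:86441121-86441420, plus strand: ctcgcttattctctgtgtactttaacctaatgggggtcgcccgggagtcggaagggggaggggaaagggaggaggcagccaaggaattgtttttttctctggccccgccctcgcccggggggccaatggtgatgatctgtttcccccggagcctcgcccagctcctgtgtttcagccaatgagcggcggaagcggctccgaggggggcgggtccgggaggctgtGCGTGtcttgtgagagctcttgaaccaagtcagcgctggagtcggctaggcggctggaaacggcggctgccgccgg
KDM3B, chr5:138352435-138352734, plus strand: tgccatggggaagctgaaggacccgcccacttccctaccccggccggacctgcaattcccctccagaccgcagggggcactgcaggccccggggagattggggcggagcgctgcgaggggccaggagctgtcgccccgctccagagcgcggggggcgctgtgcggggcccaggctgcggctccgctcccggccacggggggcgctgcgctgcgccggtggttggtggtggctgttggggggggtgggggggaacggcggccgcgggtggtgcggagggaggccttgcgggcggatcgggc
KDM4B, chr19:4968863-4969162, plus strand: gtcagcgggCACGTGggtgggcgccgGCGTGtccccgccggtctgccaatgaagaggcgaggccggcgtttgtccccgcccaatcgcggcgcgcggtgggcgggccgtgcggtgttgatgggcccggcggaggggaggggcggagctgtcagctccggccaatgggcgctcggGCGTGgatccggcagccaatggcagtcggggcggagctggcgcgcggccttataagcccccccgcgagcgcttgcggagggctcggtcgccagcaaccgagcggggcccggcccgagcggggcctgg
KDM4C, chr9:6757723-6758022, plus strand: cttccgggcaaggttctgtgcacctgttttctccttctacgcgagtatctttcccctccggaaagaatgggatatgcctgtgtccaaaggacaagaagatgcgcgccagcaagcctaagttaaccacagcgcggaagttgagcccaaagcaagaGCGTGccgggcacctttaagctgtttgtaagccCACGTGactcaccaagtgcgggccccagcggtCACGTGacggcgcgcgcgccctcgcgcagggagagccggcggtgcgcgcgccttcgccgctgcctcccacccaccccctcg
Of all 35116 promoter windows of the table, 21.4% held ACGTG, 36.5% held GCGTG and 7.26% the palindrome. KDM3A held 1 GCGTG and no ACGTG in either of its windows, and KDM3B neither. KDM4B held 2 matches of each with 1 palindrome, and KDM4C 4 ACGTG with 2 palindromes and 1 GCGTG. Matches were not confined to KDM3A, KDM4B and KDM4C. KDM6A, which passed in no comparison, held 3 ACGTG and 2 GCGTG, and KDM4A, KDM5A, KDM5B and KDM6B each held 1 GCGTG as KDM3A did. KDM3B and KDM5C were the members with neither. These matches describe letters and not binding.

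Counts of paralogues were also compared as ratios within each library. The scaling of a library cancels in such a ratio, and a fixed difference in gene length cancels in its shift between groups, but trends with length or GC content that differ between libraries do not. Of 8 pairs in 4 comparisons (32 two-sided exact permutation tests), 5 ratios passed after adjustment, all for hypoxia. KDM3A over KDM3B had a mean log2 ratio of counts of -1.85 ± 0.161 in normoxia + DMSO and -0.51 ± 0.191 in hypoxia + DMSO, a shift of 1.34 (exact permutation p = 0.00216, adjusted 0.0139). With ITE the shift was 1.11 (exact permutation p = 0.00216, adjusted 0.0139), from -1.80 to -0.69. The ratio of KDM4A over KDM4B moved the other way, from 1.31 ± 0.156 to 0.51 ± 0.321 with DMSO, a shift of -0.79, and from 1.38 to 0.05 with ITE, a shift of -1.33 (exact permutation p = 0.00216 and adjusted 0.0139 for both). KDM4B over KDM4C shifted by 0.90 with ITE (exact permutation p = 0.00216, adjusted 0.0139) and by 0.28 with DMSO (exact permutation p = 0.039, adjusted 0.125). In the 5 that passed no library of one group overlapped the other, and 0.00216 is the smallest p that 6 against 6 libraries can give. Without the 5 libraries that stood apart, the smaller groups left none past the threshold, with shifts of 1.44 and 1.45 for KDM3A over KDM3B, -0.998 and -1.22 for KDM4A over KDM4B, and 0.59 for KDM4B over KDM4C with ITE.

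**Figure D3:**
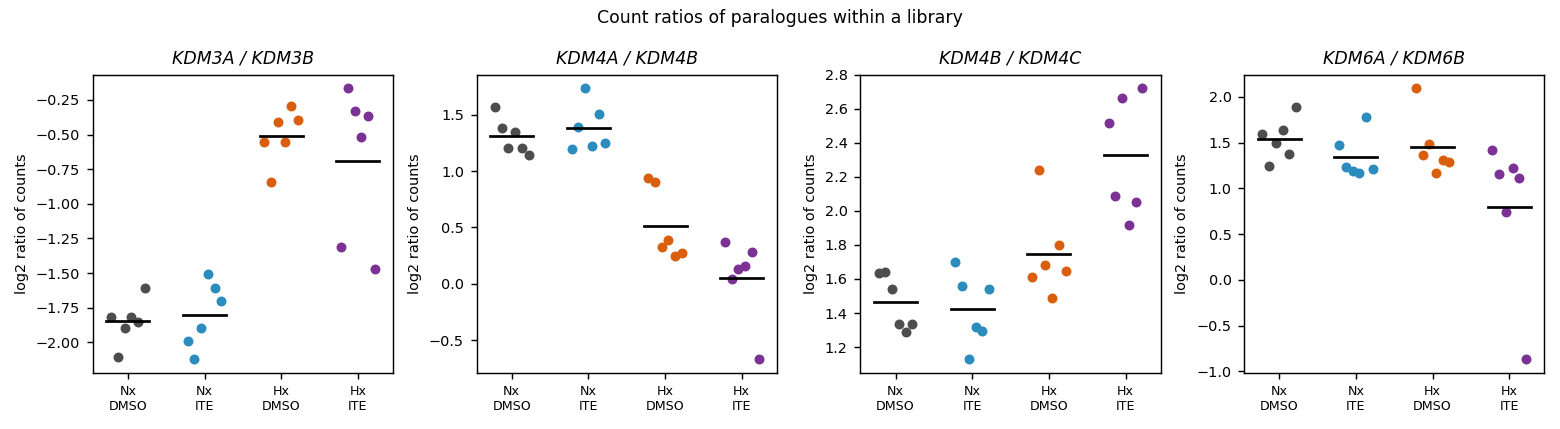
Log2 ratio of the counts (each plus 0.5) of paralogues in each library, by group, with the group mean as a bar. KDM3A over KDM3B rises from means of -1.85 and -1.80 in normoxia to -0.51 and -0.69 in hypoxia, and KDM4A over KDM4B falls from 1.31 and 1.38 to 0.51 and 0.05.

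Shares within a family were taken per kilobase over the members followed here only. Their relatives JMJD1C and KDM4D were read with the other JmjC proteins and are not in the sums. KDM3A made up 28.6% ± 2.27 of KDM3A plus KDM3B in normoxia + DMSO and 50.3% ± 3.35 in hypoxia + DMSO. The corresponding shares with ITE were 29.3% ± 3.41 and 47.3% ± 9.41. KDM4B made up 21.9% ± 1.44 of the 3 KDM4 transcripts in normoxia + DMSO and 31.5% ± 3.70 in hypoxia + DMSO, and 21.2% ± 2.28 and 39.2% ± 5.77 with ITE. KDM4A was still the largest KDM4 share in hypoxia, at 56.2% with DMSO and 50.7% with ITE. KDM5A and KDM5B each held 39.2% to 48.5% of the 3 KDM5 transcripts on average in all 4 groups.

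ITE changed no member past the threshold. In normoxia 0 of 10 were called by edgeR, where 0.0511% of all genes were called in either direction, and 0 had an unadjusted p under 0.05, against 1.46% of all genes. The log2FC ran from -0.15 for KDM5C to 0.27 for KDM6B, and KDM3A had 0.06 (-0.30 to 0.42), KDM4B -0.01 (-0.28 to 0.26) and KDM4C 0.01 (-0.33 to 0.35). KDM6B was at 7.55 to 13.0 CPM in normoxia + ITE, above its same-numbered vehicle library in 6 of 6 pairs, but the groups overlapped and the interval ran from -0.15 to 0.70 (edgeR adjusted p = 1). In hypoxia 0 of 10 were called by edgeR, where 0.0597% of all genes were called. At an unadjusted p under 0.05 there was 1 of 10, close to the 9.56% of all genes. It was KDM4B, with a log2FC of 0.31 (0.04 to 0.58, unadjusted p = 0.0274, edgeR adjusted p = 0.494), higher in 5 of 6 pairs. The value was 0.23 without hypoxia + ITE replicate 6, which held the highest library value of 78.7 CPM, 0.12 without the 5 libraries that stood apart and 0.14 with libraries corrected for gene length and GC content. KDM3A had -0.14 (-0.50 to 0.22), which was -0.062 without hypoxia + ITE replicate 6, and KDM4C -0.29 (-0.64 to 0.06). KDM6B had 0.39 (-0.06 to 0.84), and 0.17 without hypoxia + ITE replicate 6, where it was at 23.4 CPM.

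The test of whether ITE altered the hypoxic response itself called 0 of 10 members, with 0 at an unadjusted p under 0.05 in edgeR. Over all genes 0% were called, with 374 genes (3.19%) at an unadjusted p under 0.05, and DESeq2 and limma-voom also called 0 of the 11735 genes, with 500 and 795 at an unadjusted p under 0.05. The log2 difference between the hypoxia effects with ITE and with DMSO was -0.20 for KDM3A (-0.71 to 0.30, edgeR adjusted p = 0.925), 0.32 for KDM4B (-0.06 to 0.70, edgeR adjusted p = 0.915) and -0.30 for KDM4C (-0.78 to 0.19, edgeR adjusted p = 0.945). Over the 10 members it ranged from -0.35 to 0.32. With libraries corrected for gene length and GC content the difference was -0.11 for KDM3A and 0.07 for KDM4B, and without the 5 libraries that stood apart -0.079 and 0.14. Without hypoxia + ITE replicate 6 alone it was -0.13 and 0.25. The uncorrected intervals leave room for a loss of up to 0.71 for KDM3A and a gain of up to 0.70 for KDM4B. They also include no change, so neither a difference nor its absence was shown. Among paralogue ratios 0 of 16 passed for ITE. At an unadjusted exact permutation p under 0.05 there were 3 of 8 in hypoxia and 0 of 8 in normoxia. The 3 included KDM4A over KDM4B, with a shift of -0.46 (exact permutation p = 0.0238, adjusted 0.109). They also included KDM6A over KDM6B, with a shift of -0.65 (exact permutation p = 0.0368, adjusted 0.125). The nearest was KDM4B over KDM4C in hypoxia, with a shift of 0.58 (exact permutation p = 0.013, adjusted 0.0693). This ratio did pass with 2 counts added in place of 0.5 (a shift of 0.60, adjusted exact permutation p = 0.0231) and without hypoxia + DMSO replicate 2, where KDM4C rested on 7 counts (0.68, adjusted exact permutation p = 0.0231). It did not without hypoxia + ITE replicate 6 (0.50, adjusted exact permutation p = 0.139) or without the 5 libraries that stood apart (0.36, adjusted exact permutation p = 0.183).

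The level of KDM3A in hypoxia differed with the library. In the 5 libraries that stood apart it was at 49.8 to 55.0 CPM with a median of 51.1, and in the other 7 hypoxia libraries at 71.1 to 96.8 with a median of 91.7. KDM4C divided in the same way, at 8.53 to 11.9 CPM in the 5 and 13.5 to 20.0 in the 7. KDM4B did not, at 34.9 to 78.7 and 51.3 to 66.3 CPM, and the other 7 members overlapped too. The 5 libraries were set apart by the deviation of all tested genes. How many of those genes divide as KDM3A and KDM4C do was not counted, so the split is not shown to be particular to them. Without the 5 libraries the log2FC of KDM3A was 1.42 with DMSO (edgeR adjusted p = 5.19e-10) and 1.34 with ITE (edgeR adjusted p = 7.12e-09), and that of KDM4B 0.89 (edgeR adjusted p = 6e-07) and 1.03 (edgeR adjusted p = 1.84e-07). KDM4C then had 0.70 with DMSO (edgeR adjusted p = 0.000473) and 0.46 with ITE (edgeR adjusted p = 0.0502). The deviations of hypoxia + DMSO replicate 1 and hypoxia + ITE replicate 3 from their groups fell with gene length (Spearman's rho across genes -0.46 and -0.43). Those of hypoxia + ITE replicate 6 rose with GC content (rho 0.68). Hypoxia + DMSO replicate 2 and hypoxia + ITE replicate 1, also among the 5, had rho 0.04 and 0.27 with length, and 0.08 and -0.26 with GC content. Outside the 5, hypoxia + ITE replicates 4 and 5 had rho 0.46 and 0.38 with length, and -0.47 and -0.41 with GC content. Such trends were thus not confined to the 5. When each library was corrected for gene length and GC content, the log2FC was 1.27 and 1.16 for KDM3A and 0.90 and 0.97 for KDM4B, with DMSO and with ITE.

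Related enzymes were read from the same fit. Of all tested genes 1.16% were called higher in hypoxia with DMSO and 1.89% with ITE, and 0.136% and 0.46% lower. At these shares a list of this size is expected to hold few calls or none. Of 17 tested other JmjC proteins 0 passed in either hypoxia comparison, with a median log2FC of -0.12 with DMSO and -0.03 with ITE. The same held for 0 of 2 flavin-dependent demethylases, which need no 2-oxoglutarate (medians -0.06 and -0.16), and 0 of 19 histone methyltransferases, the enzymes that lay down the marks (medians -0.11 and -0.16). None of the 3 TET dioxygenases, which oxidise methylated cytosine, passed (medians -0.37 and -0.31), nor did any of 12 enzymes of 2-oxoglutarate and 2-hydroxyglutarate metabolism (medians 0.09 and 0.04). Of 2 tested HIF prolyl hydroxylases, the oxygen-dependent enzymes that mark HIF for VHL, EGLN1 rose from 137 ± 6.96 to 241 ± 22.0 CPM with DMSO, a log2FC of 0.82 (SE 0.114, edgeR adjusted p = 2.5e-05), and by 0.65 with ITE (edgeR adjusted p = 0.000797). No gene of these lists passed for ITE in normoxia, for ITE in hypoxia or for the difference between the hypoxia effects, by edgeR. Of all tested genes 0.0511%, 0.0597% and 0% were called in these comparisons. KDM4D, HR, EHMT2 and EGLN3 did not pass the filter on low counts.

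Genes whose log2 CPM followed the called members most closely over the 24 libraries are given as a description, since the libraries share groups, depth and the deviations above. For KDM3A they were BHLHE40, a transcriptional repressor (Pearson's r 0.944), GBE1, the glycogen branching enzyme (0.921), PFKFB3, a regulator of glycolysis (0.92), BNIP3L, a mitophagy receptor (0.915), and ZNF654 (0.915), among 11734 genes compared. Their log2FC in hypoxia ran from 0.93 for GBE1 to 1.97 for BNIP3L with DMSO, and from 0.83 to 1.49 for the same genes with ITE. For KDM4B they were FUT11, a fucosyltransferase (0.94), KIAA0513 (0.92), HK1, a hexokinase (0.918), SPAG4 (0.909) and ANKZF1 (0.908), with log2FC in hypoxia with ITE from 0.98 for KIAA0513 to 2.55 for SPAG4. The 2 lists shared no gene. KDM3A correlated with KDM4B at 0.809.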

How the data were processed

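PolyA RNA was sequenced from 24 RCC4+VHL libraries with a directional kit. Per the submitters' processing notes, the authors used Trim Galore 0.3.3, HISAT2 2.05 on GRCh37, Picard 2.0.1 and HTSeq 0.5.4p3, and deposited raw read counts per gene symbol. The strand setting of the counting is not given in the sources used here. Counts were tested with edgeR 4.0.16 (R 4.3.3): filterByExpr (minimum count 10), TMM, the quasi-likelihood test over all 24 libraries with 1 mean per group, and Benjamini-Hochberg adjustment over 11735 genes at 0.05. SEs are the absolute log2FC over the square root of F. For KDM4C the Poisson bound of edgeR raised the p for ITE in hypoxia from 0.102 to 0.449 and that for the difference between hypoxia effects from 0.22 to 0.571. All 10 members were named in each comparison, list genes where they passed in hypoxia, and the 5 nearest patterns each of KDM3A and KDM4B. Members and lists were chosen with earlier results of these data known. Positions and exon lengths came from GENCODE on GRCh37 for 90.5% of tested genes and all 10 members. Alternatives were DESeq2 1.42.0, RLE and upper-quartile scaling, no filter, only the compared groups, a replicate block, GC and length offsets, limma-voom 3.58.1 with quality weights, and left-out libraries. Floors cover counting error only.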

Additional observations from a re-analysis of the deposited data

Results flagged for a closer look

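Of 40 groups of 6 values (10 members in 4 groups), 2 held a library far from the others by Dixon's test, and chance gives about 2. KDM6A was at 39.9 CPM in hypoxia + DMSO replicate 2, on 29 counts in the shallowest library, with the other 5 at or below 28.8 CPM. KDM6B was at 23.4 CPM in hypoxia + ITE replicate 6, with the other 5 at or below 12.8 CPM. Both libraries are among the 5 that stood apart from their groups. Neither gene was called with or without them.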

How the results depend on the processing

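KDM3A and KDM4B kept their direction and passed under all 13 alternatives in hypoxia with DMSO (log2FC 1.19 to 1.42 and 0.75 to 0.91) and with ITE (0.98 to 1.34 and 0.97 to 1.12), the highest edgeR, DESeq2 or limma adjusted p being 0.0369, for KDM3A with ITE. The counts of called members stayed within 2 and 3 for hypoxia and at 0 for ITE and for the difference between hypoxia effects, under every alternative run. KDM4C with DMSO passed with DESeq2 (0.57, adjusted p = 0.0378), limma-voom weights (0.67, 0.000194), offsets for GC content and length (0.60, 0.023), those offsets with the block (0.59, 0.0171) and without the 5 deviating libraries (0.70, 0.000473). With ITE it passed with limma-voom weights (0.52, 0.00656). Its average did not pass with upper-quartile scaling (0.38, 0.0674), without a filter (0.40, 0.0739) or with the replicate block (0.38, 0.0537). Of 740 recomputed member values 48 changed sign, all of values that no setting called. In hypoxia with DMSO, offsets without and with the block gave 0.019 and 0.029 for KDM4A and 0.034 and 0.020 for KDM5A, and limma-voom weights gave -0.0069 for KDM6A. With ITE, the offsets gave 0.15 and 0.15 for KDM5A and 0.064 and 0.056 for KDM5B. KDM5B had 0.18 and KDM6A 0.021 with limma-voom weights. KDM5B also had -0.077 without hypoxia + DMSO replicate 2, 0.033 without hypoxia + ITE replicate 6 and 0.12 without the 5 libraries. Over all 13 alternatives KDM5B with ITE ran from -0.12 to 0.18. For ITE in normoxia, the offsets gave 0.069 and 0.068 for KDM4B and -0.0029 and -0.00069 for KDM4C. The cause of these changes was not tested.

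Same-numbered libraries did not all deviate together. Their correlations ran from 0.00 to 0.43 between the normoxia groups, with 5 of 6 pairs over 0.1. Between normoxia and hypoxia they ran from -0.02 to 0.25 with DMSO, with 4 of 6, and from 0.01 to 0.25 with ITE, with 3 of 6. Between the hypoxia groups they ran from -0.18 to 0.21, with 2 of 6. In this order 5, 3, 4 and 2 of 6 libraries correlated best with their own number, and 5, 4, 3 and 1 of 6 when matched the other way. Some same-numbered libraries thus deviated together. The number was not taken as a pairing in the main fit, and the replicate block is given as an alternative. With the replicate block, 2 members were called in each hypoxia comparison and in the average, and 0 elsewhere. Over the whole table the block on only the compared groups called 160 genes higher and 95 lower for ITE in normoxia, of 11511, against 27 and 3 for those groups without it and 6 in the fit of all libraries, with 0 members called and 1 at an unadjusted p under 0.05. Of the paralogue ratios 0 passed in the sign-flip test over 6 pairs with that block, which cannot give a p below 0.0312, and 0 without the 5 deviating libraries, which left groups of 3 and 4. The lowest counts were those of KDM4C, KDM5C and KDM6B, at 7, 2 and 11, all in hypoxia + DMSO replicate 2. Whether depth limited their results was not tested.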
